A study of Solanum tuberosum with 6 samples.

Results

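Untreated leaves of the potato cultivar KY130 were compared with untreated leaves of the cultivar Atlantic by poly(A) RNA sequencing. Both groups were kept at 25°C for 12 h, and each held 3 libraries, so that 6 of the 18 libraries of the series enter this comparison. The plants of both groups were virus-free tissue culture seedlings grown on MS medium, and their genotype is labelled WT. The other libraries are those of the cultivar KY140 at 25°C and of all 3 cultivars after 12 h of cold stress (CS) at −4°C. For the cold groups the sample titles give −4°C and the treatment field gives 12°C, and the study's −4°C is used here. Atlantic and KY140 are the cultivars the study reports on, while KY130 stands only in its deposited data and sample labels. The question set here is which genes differed between the cultivars before any cold. The members were all 114281 genes of the table, and genes with no counts in one cultivar were separated from genes expressed in both at different levels.

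Cultivated potato is an autotetraploid that is propagated by tubers, and its chromosome copies differ from each other and between cultivars in sequence and in gene content. Where an annotation keeps the copies apart, a read may be credited to the copy it matches best. A gene of another cultivar may then be counted on whichever annotated copy its sequence is nearest to. How reads were assigned to copies for this table is not stated by the sources used here. Most identifiers of the table follow an annotation of Atlantic that keeps the copies apart. In it 84000 genes carry a chromosome number from 1 to 12 and a copy number from 0 to 4, and 6017 are unplaced. The other 24264 genes carry only a number and none of the Atlantic names, and how they were defined is not given in the sources used here. What copy number 0 stands for is not given in the sources used here. Reads can be split among nearly identical copies, so the value of every single copy is uncertain to that extent. Fewer KY130 reads counted on Atlantic sequences and a lower RNA level in KY130 cannot be told apart in these counts. The table pairs no identifier with a gene name, so the leaf label could not be checked against leaf markers. In leaf tissue, fewer cells of a type and less RNA per cell cannot be told apart.

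The libraries held 11123410 to 12501696 counts in KY130 and 11717414 to 12667043 in Atlantic. At least 1 count was found for 60017 to 68376 genes in KY130 and for 69173 to 74128 in Atlantic, ranges that did not overlap although the totals did. The lowest KY130 number was that of replicate 2, the library with the most counts of its group. No library column was identical to another. Among the cold libraries used for comparison, CS-KY130 replicates 1 and 2 detected 50417 and 56550 genes, against 72029 in replicate 3 and 65796 to 74628 in CS-Atlantic. The labels hold 1 record per group. The study's methods give 3 biological replicates for its treatments but do not name KY130, whose 3 libraries were taken in the same way. The p-values measure the spread between these libraries.

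A gene was taken as expressed in a cultivar when each of its 3 libraries held at least 10 counts, and as without counts when all 3 held 0. By this rule 38255 genes were expressed in KY130 and 47153 in Atlantic, and 31892 were expressed in both. The shared genes made up 83.4% of those expressed in KY130 and 67.6% of those expressed in Atlantic. Only 875 genes were expressed in KY130 with no counts in Atlantic, while 4011 were expressed in Atlantic with no counts in KY130, which is 2.29% and 8.51% of the genes expressed in each. A further 5488 genes were expressed in KY130 with some counts below the minimum in Atlantic, and 11250 were expressed in Atlantic with some counts below it in KY130. The remaining 60765 genes were not expressed in either cultivar. The 875 genes became 1406 without KY130 replicate 2, and the other libraries moved neither number by more than 1.5 times. A count of 0 allows a level of up to 3 counts per library, 0.237 to 0.27 CPM (counts set to one library size for all) in these libraries, and does not show that the gene is missing from the genome.

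The bulk of the RNA fell on the shared genes. They held 92.7%, 93.4% and 92.5% of the counts in the KY130 libraries, and 80.5%, 80.1% and 80.7% in the Atlantic libraries. Genes without counts in the other cultivar took 0.746%, 1.02% and 0.68% of the KY130 counts, against 3.98%, 4.21% and 3.87% of the Atlantic counts. The genes expressed in Atlantic that fell below the minimum in KY130 took a larger part than these, with 1.41%, 0.875% and 1.56% of the KY130 counts, against 12.8%, 13.1% and 12.5% of the Atlantic counts. Neither this share nor that of the shared genes overlapped between the cultivars. The classes were set on these same libraries, a choice that favours such a split. In the cold libraries, which did not set them, the shared genes held 91.1% to 91.4% in CS-KY130 and 77.4% to 78.2% in CS-Atlantic.

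**Figure D1:**
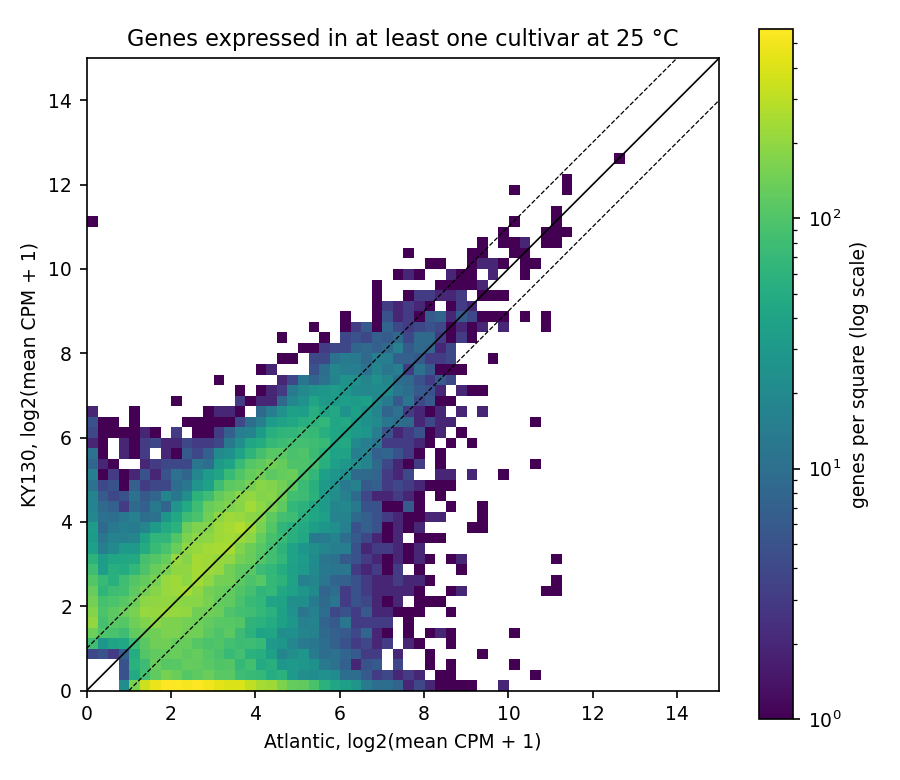
Mean expression in KY130 (vertical axis) and in Atlantic (horizontal axis) of the 53516 genes expressed in at least one of them at 25°C, as log2(mean CPM + 1) with CPM by library totals. The colour gives the genes per square on a log scale, the solid line marks equal levels and the dashed lines a difference of 1 on this scale. A band of genes lies along the bottom edge, where KY130 is at or near 0, and a thinner one lies along the left edge, where Atlantic is at or near 0.

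The difference between KY130 and Atlantic was tested in 57681 genes by the quasi-likelihood test of edgeR, with TMM scaling. Genes were taken as differentially expressed (DEGs) at a |log2FC| of 1 or more with an FDR, adjusted after Benjamini and Hochberg, under 0.05. Over all genes tested, 21531 were DEGs (37.3%), of which 7350 were higher in KY130 (12.7% of those tested) and 14181 lower (24.6%). Genes with no counts in one cultivar had to differ by the way they were chosen, and 859 of the 859 such KY130 genes and 3923 of the 3923 such Atlantic genes that were tested were called. Among the 31892 genes expressed in both, 9368 were DEGs (29.4%), 5093 higher and 4275 lower in KY130. Of these DEGs, 54.4% were higher, against 34.1% of the DEGs over all genes. The direction of that split depended on the scaling. The share higher was 64.9% with upper quartile factors, and 43.6% with TMM factors from the genes with at least 10 counts in all 6 libraries, and a fit of the shared genes alone called 9742, of which 43.7% were higher. In a joint fit of all 18 libraries, 5025 of the shared genes were called.

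Among the shared genes the differences were moderate for most and wide at the low end. The median log2FC, KY130 over Atlantic, was 0.20, with the middle 50% of the genes between −0.65 and 0.92, and 18806 genes (59.0%) lay within 1 of zero. These values, and the splits by direction below, shift with the scaling. The median log2FC of all genes moved by −0.17 with TMM factors from the genes with at least 10 counts in all 6 libraries. With upper quartile factors it moved by 0.20. At the edges, 5% of the genes lay below −2.36 and 5% above 1.87. Of the DEGs, 165 were higher and 782 lower in KY130 by at least 3 on the log2 scale, and 6 were higher and 93 lower by at least 5. The large differences thus ran mostly towards lower counts in KY130, and the part of the Atlantic annotation in this was not tested. The share of genes called was larger at higher levels of expression. Divided by mean level into 4 parts of 7973 genes, the shared genes of the lowest part (1.03 to 6.69 CPM) were DEGs in 9.82%, and those of the highest (25.9 CPM and more) in 43.8%, 2254 higher and 1238 lower in KY130. The median size of the difference was 0.70 and 0.90 in these parts, with median standard errors of 0.64 and 0.27. The part of size, standard error and depth in the shares called was not tested.

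Soltu.Atl.S065870, an unplaced gene, had the highest log2FC among the shared DEGs. Its expression was 89.3, 131.2 and 58.1 CPM in the KY130 libraries, against 1.07, 1.37 and 1.72 CPM in the Atlantic libraries, a log2FC of 6.05 ± 0.41 (SE, adjusted p = 4.2e-05 by edgeR). After cold it had 64.9, 96.3 and 99.5 CPM in CS-KY130 and 0.544, 0.644 and 0.587 CPM in CS-Atlantic. The KY140 libraries at 25°C held 1307, 643 and 1251 counts of it, so Atlantic was the cultivar with the low level. The reverse was found for Soltu.Atl.10_0G008860, the lowest log2FC of the shared DEGs, on chromosome 10 with copy number 0. It had 2.10, 0.892 and 1.45 CPM in KY130, against 1169, 1008 and 1609 CPM in Atlantic, a log2FC of −9.73 ± 0.40 (SE, adjusted p = 1e-05 by edgeR). In the cold libraries its level was 1.25, 1.4 and 3.16 CPM in CS-KY130, against 801.1, 838.4 and 794.2 CPM in CS-Atlantic. In KY140 it had 76893, 91442 and 78973 counts at 25°C, and here KY130 was the cultivar with the low level. The function of these genes is not annotated in the sources used here.

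Genes with counts in one cultivar only differed between the cultivars in kind as well as in number. Of the 875 KY130 genes, 531 (60.7%) carried only a number and 318 had a chromosome, whereas of the 4011 Atlantic genes 911 (22.7%) carried only a number and 3025 had a chromosome. Placed on a chromosome, 0.929% of the genes expressed in KY130 were without counts in Atlantic, and 7.09% of those expressed in Atlantic were without counts in KY130. For genes with a number only, the shares were 20.1% and 28.0%. Most of the genes found in one cultivar only were weakly expressed, with a median of 3.52 CPM for the KY130 genes and 5.31 CPM for the Atlantic genes. Some were abundant. The most abundant of the KY130 genes, one that carries only a number, had 12519, 55774 and 6696 counts in KY130 and 0 in each Atlantic library, at least 8004-fold higher in KY130 when each Atlantic library is set at a floor of 3 counts. The KY130 replicates differed widely in it, with 1094, 4525 and 538.4 CPM, and without replicate 2 the bound was 3183-fold. On chromosome 3, copy 3, the gene Soltu.Atl.03_3G022790 had 0 counts in each KY130 library and 9399, 7268 and 5380 in Atlantic, at least 2533-fold lower in KY130 against the same floor. Neither of them was limited to its cultivar in the series, since the KY140 libraries at 25°C held 778, 1340 and 2331 counts of the gene at 0 in Atlantic and 3220, 3556 and 5703 counts of the one at 0 in KY130.

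The cold libraries were not used to choose these genes, and in them the split between the cultivars was found again. Of the 4011 genes with counts in Atlantic only at 25°C, 304, 367 and 627 (7.58% to 15.6%) had at least 1 count in the CS-KY130 libraries, against 3791, 3890 and 3520 (87.8% to 97.0%) in the CS-Atlantic libraries. Over all 3 CS-KY130 libraries 3019 of them (75.3%) stayed without a count, and 8 reached 10 counts in each. In CS-Atlantic, 34 were without counts and 2956 were expressed. They took 0.0252%, 0.0289% and 0.0249% of the CS-KY130 counts, against 3.86%, 3.75% and 3.68% of the CS-Atlantic counts. Of the 875 genes with counts in KY130 only, 505, 651 and 843 had a count in CS-KY130 replicates 1, 2 and 3, and 91, 114 and 62 had one in the CS-Atlantic replicates. Here 15 were without counts in CS-KY130 and 695 (79.4%) in CS-Atlantic. For scale, of all 47153 genes expressed in Atlantic at 25°C, 9.29% were without counts in CS-KY130 and 0.223% in CS-Atlantic. Of all 38255 genes expressed in KY130, 2.67% were without counts in CS-Atlantic and 0.18% in CS-KY130. The 31892 shared genes were chosen for counts in both cultivars, and 22 were without counts in CS-KY130 and 20 in CS-Atlantic. The lower numbers of CS-KY130 replicates 1 and 2 went with their fewer detected genes, whose part in the result was not tested.

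**Figure D2:**
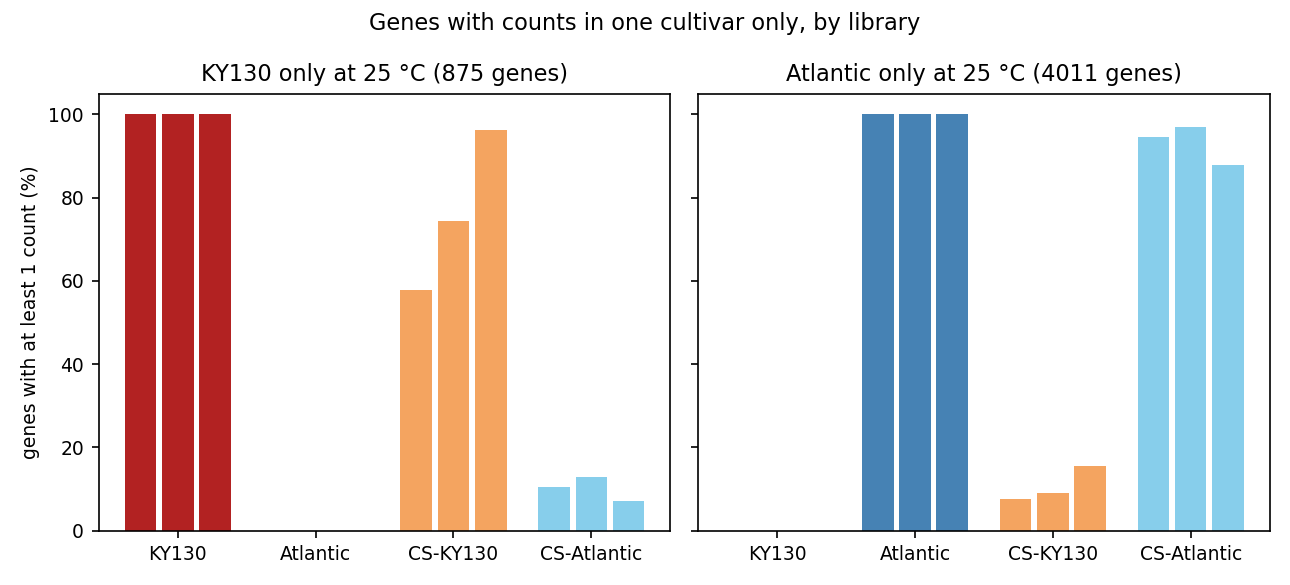
Share of the 875 genes with counts in KY130 only at 25°C (left) and of the 4011 with counts in Atlantic only (right) that had at least 1 count in each library, with 1 bar per library in replicate order. The 25°C bars follow from the choice of the genes, while the cold bars (CS-KY130 and CS-Atlantic) come from separate libraries, where 57.7% to 96.3% of the KY130 genes had a count in CS-KY130 and 7.09% to 13.0% in CS-Atlantic.

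The same genes were read in KY140, the remaining cultivar. Of the 875 genes with counts in KY130 only, 81 (9.26%) were expressed in KY140 at 25°C and 553 (63.2%) had no counts there. Of all genes expressed in KY130, 51.0% were expressed in KY140 and 11.5% had no counts. Of the 4011 genes with counts in Atlantic only, 1196 (29.8%) were expressed in KY140 and 1401 (34.9%) had no counts. Of all genes expressed in Atlantic, the shares were 50.6% and 11.8%. The KY140 libraries at 25°C detected 45305 to 65787 genes, against 60017 to 68376 in KY130 and 69173 to 74128 in Atlantic. Genes with counts in one cultivar only were also weakly expressed, with medians of 3.52 CPM in KY130 and 5.31 CPM in Atlantic. The part of detection and level in these shares was not tested, and no test was made of the shares.

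The genes lower in KY130 were unevenly distributed over the chromosome copies of Atlantic. Each chromosome is represented by copies 0 to 4, 60 in all. Among the genes expressed in Atlantic, the share without counts in KY130 ranged from 6 of 852 on chromosome 3 copy 2 (0.704%, exact 95% interval 0.259% to 1.53%) to 117 of 631 on chromosome 7 copy 1 (18.5%, 15.6% to 21.8%), with a median over the copies of 6.15%. The intervals cover counting error only and treat genes as independent. Summed over copies, the range narrowed to 3.84% on chromosome 4 and 11.9% on chromosome 6. The median log2FC of a copy ran from −2.24 on chromosome 7 copy 1 to 1.09 on chromosome 12 copy 3. These medians were unchanged at 2 decimals when genes with no counts in one cultivar were set at their floor. A median depends little on how far out such genes lie, so this step could hardly have moved it.

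**Figure D3:**
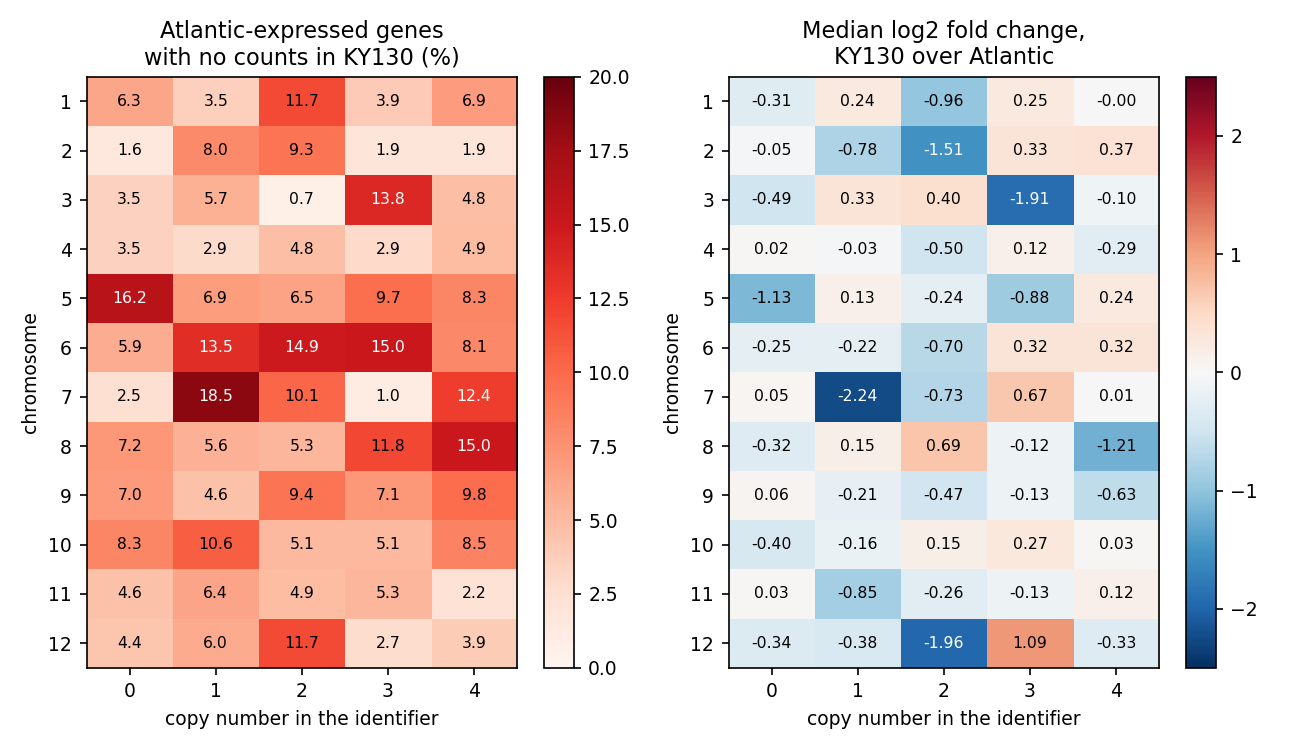
Chromosomes (rows) and copy numbers (columns) of the Atlantic annotation, with the share of genes expressed in Atlantic that had no counts in KY130 (left, in percent) and the median log2FC of the genes tested, KY130 over Atlantic (right, red above and blue below 0). Chromosome 7 copy 1 and chromosome 3 copy 3 are dark in both panels, with 18.5% and 13.8% without counts and medians of −2.24 and −1.91, while chromosome 12 copy 3 is the reddest on the right with a median of 1.09.

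Copies of the same chromosome stood at opposite ends of this range. Over all genes tested, 24.6% were DEGs lower and 12.7% DEGs higher in KY130, and the median log2FC was −0.14. On chromosome 12, copy 2 had 545 DEGs lower and 23 higher in KY130 of 1134 genes tested, and copy 3 had 68 lower and 392 higher of 1046, with medians of −1.96 and 1.09. On chromosome 7, copy 1 had 360 DEGs lower and 28 higher of 693, and copy 3 had 77 lower and 273 higher of 1179, with medians of −2.24 and 0.67. The next lowest medians after these were those of copy 3 on chromosome 3 (817 lower and 63 higher of 1677, median −1.91) and copy 2 on chromosome 2 (776 lower and 62 higher of 1879, median −1.51). The copies also differed in how many genes were expressed at all. In KY130, 269 of 631 genes expressed in Atlantic from chromosome 7 copy 1 (42.6%) were also expressed, against 870 of 969 from copy 3 (89.8%). For chromosome 12 the shares were 48.4% for copy 2 and 90.8% for copy 3. Over all genes expressed in Atlantic the share was 67.6%.

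The counts of each library were then divided among the copies of a chromosome, a share that does not depend on library size or scaling. Copy 3 of chromosome 12 held 45.4%, 45.6% and 45.0% of the counts of that chromosome in KY130, against 24.5%, 23.8% and 24.3% in Atlantic. Copy 2 of the same chromosome held 14.2%, 14.4% and 14.4% in KY130, against 31%, 31.4% and 31% in Atlantic. The replicates of these copies lay within 1 percentage point of each other, and the cultivars did not overlap. On chromosome 7, copy 3 held 43.0%, 43.0% and 42.9% in KY130 and 28.4%, 28.1% and 28.3% in Atlantic, and copy 1 held 7.4%, 6.88% and 7.38% in KY130 and 17.1%, 16.8% and 17.6% in Atlantic. For copy 2 of chromosome 2 the share was 18.0% in every KY130 library, against 33.5%, 33.1% and 33.4% in the Atlantic libraries. For copy 3 of chromosome 3 it was 18.9%, 19.1% and 19.1% in KY130, against 36.9%, 36.6% and 35.5% in Atlantic. In 53 of the 60 copies the shares of the cultivars did not overlap, 26 higher and 27 lower in KY130. With 3 libraries against 3, an exact two-sided permutation test cannot give a p below 0.1, so no test was made for a single copy.

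Whole chromosomes differed far less than their copies. The mean share of a chromosome in all counts of a library, KY130 over Atlantic, ranged from 0.891 to 1.1 over the 12 chromosomes, while that of a copy within its chromosome ranged from 0.42 to 1.87. The shares of the copies of a chromosome sum to the whole, so a lower share of one copy goes with higher shares of others by construction.

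In the cold libraries most copies differed in the same direction. After cold, chromosome 12 copy 3 held 42.8%, 41.6% and 42.9% of the counts of its chromosome in CS-KY130, against 22.8%, 22.5% and 22.7% in CS-Atlantic, and copy 2 held 15%, 15.9% and 15% against 30.1%, 30.7% and 30.9%. Of the 53 copies that did not overlap at 25°C, 44 lay on the same side without overlap in the cold libraries, 21 higher and 23 lower in CS-KY130, and 0 were reversed. The remaining copies overlapped there. KY140 is set against the same Atlantic libraries. Of the 27 copies with a lower share in KY130 than in Atlantic at 25°C, 9 had a higher and 13 a lower share in KY140 than in Atlantic, and 5 overlapped. The 4 lower copies described above were among the 9, and were chosen after their values were seen. Copy 2 of chromosome 12 held 61.0%, 61.1% and 61.8% of the counts of its chromosome in KY140, copy 1 of chromosome 7 held 31.4%, 30.6% and 30.5%, copy 2 of chromosome 2 held 76.4%, 75.5% and 76.2%, and copy 3 of chromosome 3 held 65.4%, 65.1% and 66.3%.

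Along a copy, in the order of the identifiers, genes low in KY130 also lay in runs. The longest run of consecutive genes expressed in Atlantic and not expressed in KY130 was 48 genes on chromosome 5 copy 4, followed by 47 on chromosome 6 copy 1 and 46 on chromosome 5 copy 2. Over all copies, 568 runs of at least 5 such genes were found. Runs of genes with 0 counts in KY130 were shorter, the longest being 14 genes on chromosome 8 copy 3, 10 on chromosome 2 copy 2 and 9 on chromosome 7 copy 4, with 48 runs of at least 5. Runs of genes expressed in both cultivars reached 203 genes on chromosome 12 copy 3, 142 on chromosome 3 copy 1 and 111 on chromosome 5 copy 3. The lengths are descriptions, and no comparison with a random order was made.

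**Figure D4:**
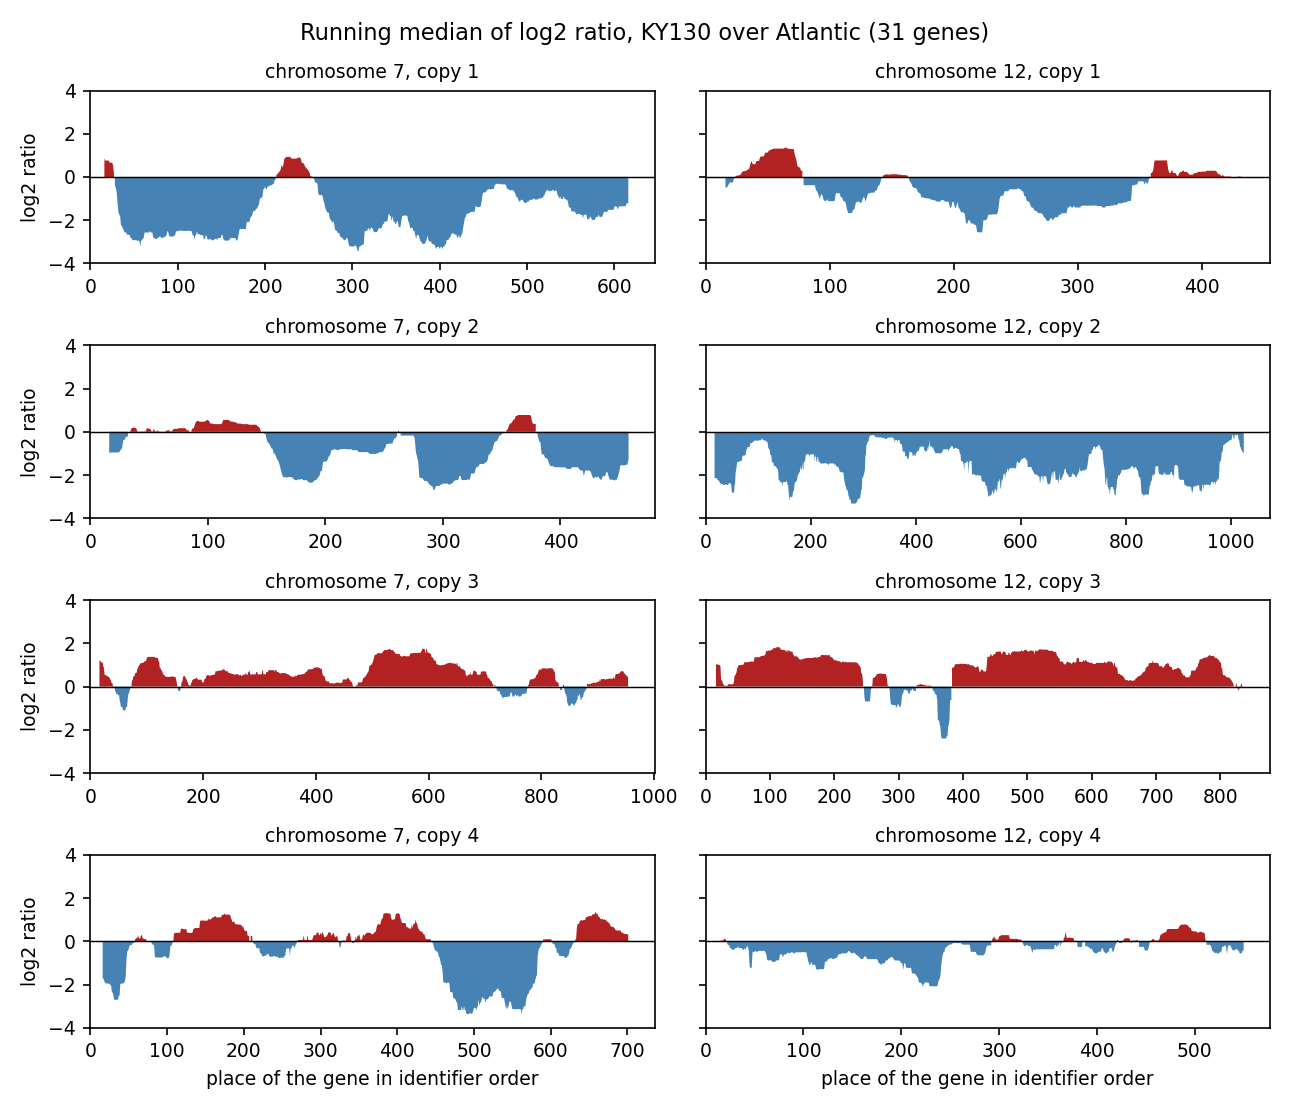
Running median over 31 genes of the log2 ratio of mean CPM + 1, KY130 over Atlantic, along copies 1 to 4 of chromosomes 7 (left) and 12 (right), for genes expressed in Atlantic in identifier order. Red marks stretches higher and blue stretches lower in KY130. Copy 1 of chromosome 7 and copy 2 of chromosome 12 are blue over most of their length, copy 3 of each is mostly red, and copies such as chromosome 7 copy 4 change between red and blue.

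The running median of the ratio described longer stretches. On chromosome 12 copy 2, 72.8% of the windows of 31 genes lay below −1 and none above 0, and the lowest was −3.3. On copy 3 of this chromosome 88.8% of the windows lay above 0 and 2.31% below −1, and the highest was 1.84. Chromosome 7 copy 1 had 74.4% of its windows below −1 and 8.82% above 0, and copy 3 had 0.532% below −1 and 85.2% above 0. Copy 4 of chromosome 7 was mixed, with 22.9% below −1 and 53.8% above 0 and values from −3.39 to 1.34. The windows contain only genes expressed in Atlantic, a choice that lowers the ratio of KY130 to Atlantic in all of them, so that their position relative to each other is what can be read.

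As a fixed list with known enzymes, the 12 genes named by the study were read, which act in the synthesis of phenylpropanoids, of oxylipins (the oxidised fatty acids that include jasmonate) and of GABA. Phenylpropanoid synthesis leads from phenylalanine to lignin and flavonoids, jasmonate is a wound and stress hormone made from fatty acids, and GABA is made from glutamate. The study chose these genes for their response to cold in Atlantic and KY140, so they are not a sample of leaf metabolism at 25°C. At 25°C, 11 of the 12 were expressed in both cultivars and were tested, and 1 was higher and 2 were lower in KY130. With 3 of 11 called, the list lay near the 29.4% of the shared genes and below the 37.3% of all genes tested, so the count says nothing particular about it. DESeq2 called 4, these 3 and St4CL. The median log2FC of the 11 was −0.14, the same as the median of all genes tested, with 5 positive and 6 negative values (53.3% of all genes tested were negative).

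In the phenylpropanoid pathway, StCYP73A (Soltu.Atl.06_1G015640), a cinnamate hydroxylase on chromosome 6 copy 1, had 4.02, 5.11 and 5.07 CPM in KY130, against 22.8, 16.1 and 31.6 CPM in Atlantic. All KY130 values lay below all Atlantic values, with a log2FC of −2.31 ± 0.37 (SE, adjusted p = 0.00182 by edgeR). The other StCYP73A genes of the list, which lie next to each other on copy 4, did not follow it. Soltu.Atl.06_4G021440 had 16.5, 39.8 and 15.3 CPM in KY130 and 21.8, 19.6 and 38.9 CPM in Atlantic, and Soltu.Atl.06_4G021450 had 79.5, 137.0 and 81.5 CPM and 55.3, 28.7 and 84.9 CPM. Both overlapped between the cultivars and had log2FC values of −0.17 ± 0.45 and 0.82 ± 0.40 (adjusted p = 0.802 and 0.142 by edgeR). Of the StCYP73A genes named by the study, only the one on copy 1 was called, and other genes for this enzyme were not identified.

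StCSE (Soltu.Atl.04_4G005370), an esterase of lignin synthesis that releases caffeate, was the one gene of the list higher in KY130. It had 231.1, 194.6 and 273.5 CPM in KY130, against 79.0, 81.1 and 173.8 CPM in Atlantic, without overlap. The log2FC was 1.07 ± 0.33 (SE, adjusted p = 0.0316 by edgeR), close to the threshold of 1. The call was lost without KY130 replicate 1 or 3 or without Atlantic replicate 1 or 2, where the log2FC was 1.08, 0.94, 0.85 and 0.87. Upstream in the pathway, StPAL (Soltu.Atl.09_2G005110), which removes the amino group of phenylalanine, had 4.81, 2.84 and 7.64 CPM in KY130 and 5.90, 11.2 and 9.57 CPM in Atlantic. St4CL (Soltu.Atl.03_3G030960), the ligase that couples coumarate to coenzyme A, had 3.06, 9.33 and 4.26 CPM in KY130 and 24.3, 6.87 and 20.3 CPM in Atlantic. In both genes 1 library of a group reached into the other, KY130 replicate 3 for StPAL and Atlantic replicate 2 for St4CL. Their log2FC values of −0.80 ± 0.52 and −1.62 ± 0.60 were not called (adjusted p = 0.265 and 0.0621 by edgeR). St4CL passed without KY130 replicate 2 (log2FC −2.24) or Atlantic replicate 2 (−2.02), with DESeq2 (−1.68), without the filter on low counts (−1.65) and with TMM factors of the common genes (−1.78).

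StGAD (Soltu.Atl.11_3G000340), the glutamate decarboxylase that makes GABA, had 17.7, 37.2 and 17.0 CPM in KY130 and 44.8, 39.6 and 67.6 CPM in Atlantic. The groups did not overlap, with KY130 replicate 2 just below Atlantic replicate 2, and the log2FC of −1.08 ± 0.37 passed narrowly (adjusted p = 0.0499 by edgeR). This call was lost when any library other than KY130 replicate 2 was left out, with a log2FC of −0.90 and −0.88 without KY130 replicates 1 and 3 and of −1.18, −1.24 and −0.83 without Atlantic replicates 1, 2 and 3.

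Of the 4 oxylipin genes tested at 25°C, 0 were called by edgeR or DESeq2 and 0 had an unadjusted p under 0.05. All 4 were shared genes, of which 29.4% were called, beside 37.3% over all genes tested. With so few genes, the count says nothing particular about the group. StLOX1_5 (Soltu.Atl.01_4G023960), a linoleate lipoxygenase of the branch that does not lead to jasmonate, had 8.92, 3.57 and 14.2 CPM in KY130 and 4.20, 11 and 8.02 CPM in Atlantic. StAOC (Soltu.Atl.02_2G023780), the cyclase that forms the ring of the jasmonate precursor, had 17.6, 5.19 and 11.5 CPM in KY130 and 5.99, 9.21 and 11.5 CPM in Atlantic. Their log2FC values were 0.20 ± 0.59 and 0.36 ± 0.51. The 2 StOPCL1 genes, whose enzyme activates a precursor for the last shortening steps, lie on the chromosome 12 copies that differed most. On copy 2, Soltu.Atl.12_2G005410 had 11.3, 14.9 and 13.3 CPM in KY130 and 13.4, 15.2 and 15 CPM in Atlantic, a log2FC of −0.14 ± 0.30. On copy 3, Soltu.Atl.12_3G004550 had 28.7, 13.1 and 31.4 CPM in KY130 and 17.9, 10.9 and 12.2 CPM in Atlantic, a log2FC of 0.83 ± 0.40. Both overlapped between the cultivars, and the first lay well above the median of its copy (−1.96). Without KY130 replicate 2, the gene on copy 3 passed with a log2FC of 1.11. StLOX2S (Soltu.Atl.03_0G008370), a lipoxygenase of the plastid route, was near its floor at 25°C, with 13, 6 and 1 counts in KY130 and 3, 2 and 5 in Atlantic, and was not tested.

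**Figure D5:**
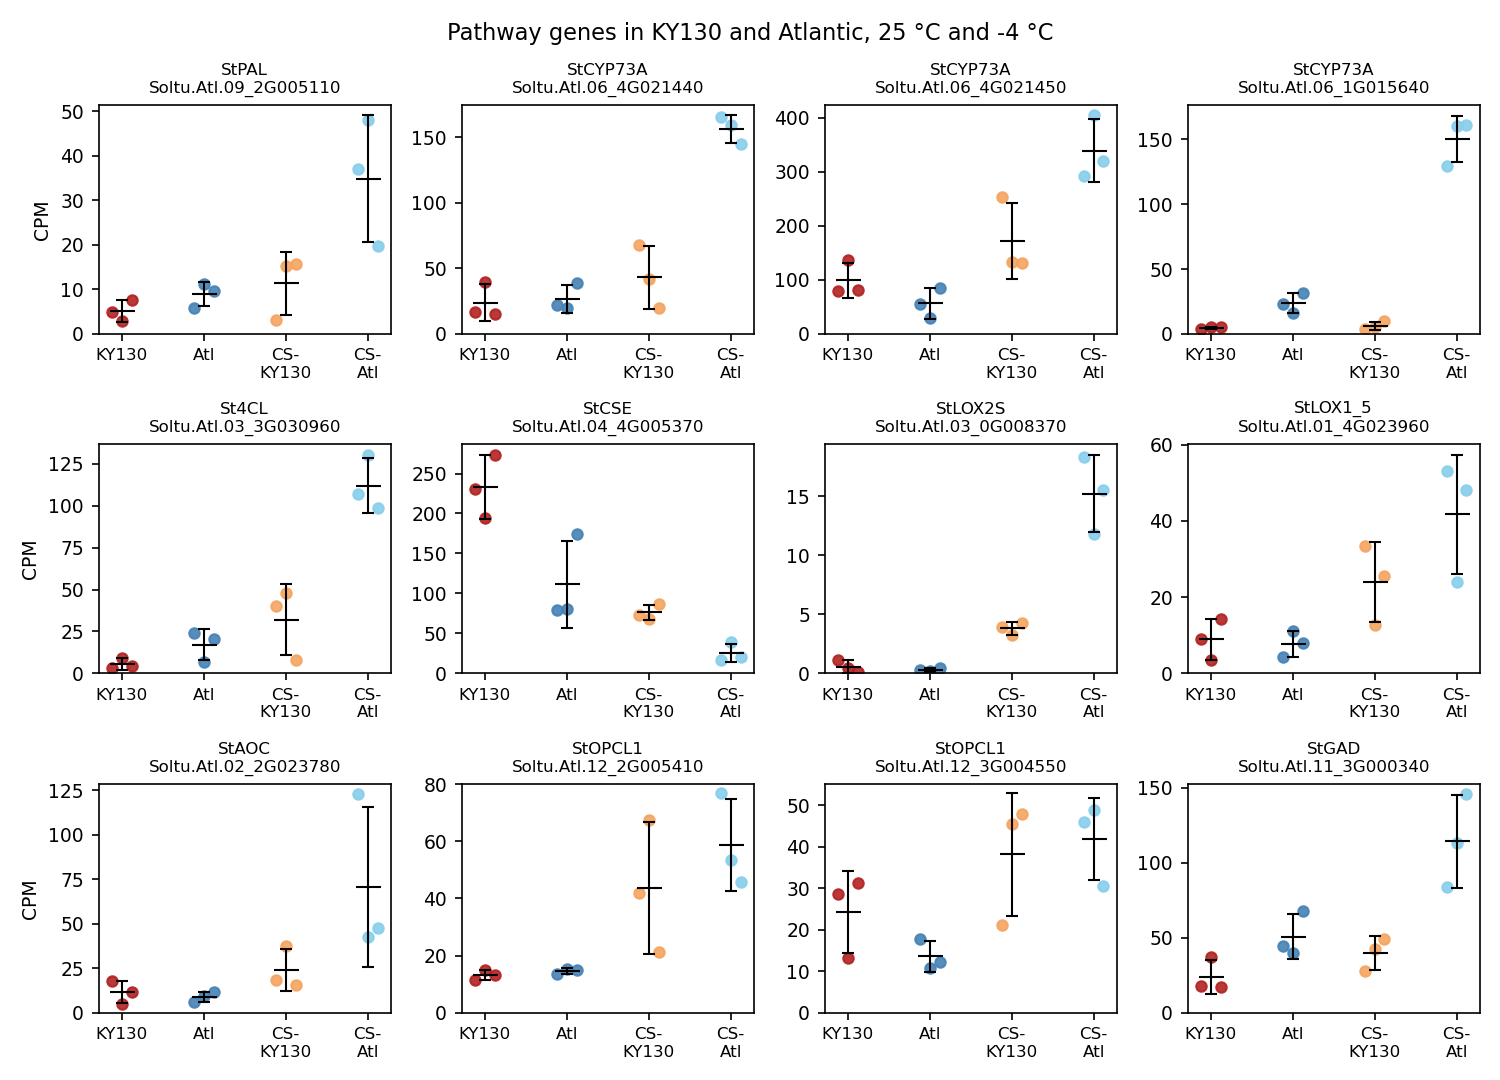
Expression in CPM, scaled by the TMM library sizes of the fit at each temperature, of the 12 pathway genes in KY130, Atlantic (Atl), CS-KY130 and CS-Atlantic (CS-Atl). Points are libraries and bars the mean ± SD (n = 3). At 25°C only the StCYP73A gene on chromosome 6 copy 1, StCSE and StGAD separate KY130 from Atlantic without overlap and are called. After cold the mean of CS-KY130 lies below that of CS-Atlantic in 11 of the 12 panels, StCSE being the exception. The study chose the genes by their cold change in these Atlantic libraries, a choice that favours this pattern.

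In the cold libraries the same cultivar contrast, CS-KY130 against CS-Atlantic, gave 16626 DEGs of 55243 genes tested (30.1%), 5189 higher and 11437 lower in CS-KY130. Of the 21531 DEGs at 25°C, 19065 were tested there, and 18568 (97.4%) had a log2FC of the same sign. DEGs in the same direction at both temperatures numbered 11717, 3148 higher and 8569 lower in KY130, which is 54.4% of the list at 25°C and 70.5% of the list after cold. Only 20 were DEGs in opposite directions. For the shared genes, 4499 were DEGs in the same direction, 48.0% of the list at 25°C and 66.1% of that after cold, and 19 in opposite directions. These numbers depended on the libraries. Without CS-Atlantic replicate 1, 9515 genes were called after cold and 7575 in the same direction at both temperatures (35.2% of the list at 25°C), 2769 of them shared genes. Without CS-Atlantic replicate 2 the numbers were 9189, 7436 (34.5%) and 2756.

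Among the pathway genes, 1 was higher and 5 were lower in CS-KY130 than in CS-Atlantic, against 5189 higher and 11437 lower over all genes tested (30.1% called). The log2FC was negative in 11 of the 12, with a median of −1.54, and in 55.9% of all genes tested, with a median of −0.28. The study screened for genes that changed more with cold in Atlantic than in KY140, with the same CS-Atlantic libraries. That choice favours high CS-Atlantic values in induced genes and a low one in StCSE. No conclusion is therefore drawn from the calls and signs of this list after cold. StCYP73A on chromosome 6 copy 1 had 3.93, 4.98 and 9.64 CPM in CS-KY130 and 129.8, 160.2 and 161.2 CPM in CS-Atlantic, a log2FC of −4.60 ± 0.41 (adjusted p = 0.000358 by edgeR). StLOX2S had 3.93, 3.23 and 4.30 CPM in CS-KY130 and 18.3, 11.8 and 15.5 CPM in CS-Atlantic, a log2FC of −1.99 ± 0.47 (adjusted p = 0.0154 by edgeR). StCSE remained higher, with 73.3, 68.1 and 87.0 CPM in CS-KY130 and 16.9, 38.7 and 21.0 CPM in CS-Atlantic (log2FC 1.58 ± 0.36, adjusted p = 0.0133 by edgeR). Whether the cultivar difference itself changed with temperature was tested as an interaction over the 12 libraries. It passed an FDR of 0.05 in 28 of 67423 genes (0.0415%) and in 0 of the 12 pathway genes by edgeR, with adjusted p from 0.149 for StCYP73A on chromosome 6 copy 1 to 1.0. Of these genes, 5 had an unadjusted p under 0.05, and DESeq2 called 1, the same StCYP73A gene. By edgeR, the cultivar difference is therefore not shown to change with temperature for any single pathway gene.

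Over the 95888 genes with at least 1 count, Pearson's r of log2(CPM + 1) was 0.90 to 0.938 between KY130 replicates and 0.918 to 0.932 between Atlantic replicates, and 0.671 to 0.698 between libraries of different cultivars. The values are across genes, which are not independent replicates. Among the genes expressed in both cultivars alone, r between the cultivars was 0.609 to 0.646, a lower range than over all genes. On 102176 genes with the KY140 libraries included, KY130 and Atlantic correlated at 0.686 to 0.714, KY140 and Atlantic at 0.609 to 0.681 and KY130 and KY140 at 0.502 to 0.571. The KY140 libraries detected 45305 to 65787 genes, and the part of this in their lower correlations was not tested. The biological coefficient of variation was 66.3% in KY130 and 51.8% in Atlantic.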

How the data were processed

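Poly(A) RNA of leaves was sequenced by the authors, who deposited whole-number counts per gene. A note in the labels names normalized counts or FPKM and TPM only as examples of the matrix kept, and no source states the unit. The values were taken as raw counts because they are whole and sum to different totals, and every count-based test rests on that. Not given in the sources used here are the aligner, the counter, the genome build, whether strand was used in counting (the library protocol marks it), and how reads that fit several copies were treated. A further deposited table repeats the identifiers and was not used. No identifier matched the RefSeq gene table of potato (0 matches). All 18 columns were matched to groups, with 0 left over.

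Counts were fitted with edgeR 4.0.16 (limma 3.58.1, R 4.3.3) on the 6 libraries, with filterByExpr at a minimum count of 10, TMM scaling and the quasi-likelihood test. DEGs had |log2FC| of at least 1 and FDR under 0.05. Standard errors are |log2FC| divided by the square root of F. CPM of single genes uses TMM library sizes, and figures of levels, correlations and running medians use library totals with a pseudocount of 1. Tables were made with Python 3.11.15 and SciPy 1.17.1.

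The genes named are the 12 that the study names by identifier, plus, in each direction, the shared DEG with the most extreme log2FC and the gene of one cultivar only with the highest mean CPM. Members and lists were chosen with earlier results of these data known, and the copy shares, division by level and running medians after the values were seen. On simulated counts of this comparison (57681 genes, 200 changed), edgeR recovered 0% of 2-fold, 11.9% of 4-fold and 33.3% of 8-fold changes with 1 false call. DESeq2 1.42.0 recovered 4.48%, 50.7% and 63.6% with 107. In the data 21531 genes were called, so the FDR was harder to pass in the simulation, with 200 changed. A 2-fold change also lies on the fold threshold itself. These rates are therefore not the power of the real comparison. The alternatives were other scaling, filters, tool, joint fit, replicate block, no fold threshold, other count minimums and leaving out each library.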

Additional observations from a re-analysis of the deposited data

Results flagged for a closer look

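The cultivar difference, KY130 minus Atlantic, differed between −4°C and 25°C in 28 of 67423 genes by edgeR's interaction test at an FDR of 0.05, 17 of them with a higher value of the difference after cold. Of the 28 genes, 26 were expressed in both cultivars at 25°C. An unadjusted p under 0.05 was found in 5861 genes, and DESeq2 called 1038. The number rested on single libraries, with 529 genes without CS-KY130 replicate 3, 60 without CS-KY130 replicate 1, 13 without KY130 replicate 1, 15 without Atlantic replicate 2, and 17 each without Atlantic replicate 3, CS-Atlantic replicate 2 or CS-Atlantic replicate 3. The biological coefficient of variation was 104% in CS-KY130, the most variable of the 4 groups, 59.4% in CS-Atlantic, 66.3% in KY130 and 51.8% in Atlantic. The part of this spread in the result was not tested.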

How the results depend on the processing

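The number of DEGs at 25°C stayed within 1.5 times the reported 21531 in all 16 other settings, from 16643 in the joint fit of 18 libraries (4248 higher, 12395 lower) to 23993 with DESeq2, and from 18622 to 23625 without single libraries. For the genes expressed in both, the joint fit gave 5025 DEGs, single libraries left out gave 7027 to 9413, and the other settings stayed within 1.5 times of 9368. Upper quartile factors shifted the median log2FC of all genes by 0.20 and TMM factors of the common genes by −0.17. After cold, the replicate block gave 10540 DEGs and leaving out a library 9189 to 18416. Library numbers are not stated to pair the cultivars. Same-numbered libraries deviated together with r = −0.0212, 0.0592 and 0.0987, against −0.0958 to 0.0313 for different numbers. With 3 libraries per cultivar these values cannot settle whether the numbers pair them. The replicate block gave 18175 DEGs at 25°C. Genes with counts in KY130 only were 511 at a minimum of 20 counts and 213 at 50, and 1034 to 1406 without single libraries; those in Atlantic only were 1756 at 50 and 4559 to 5050. If up to 3 counts summed over a group counted as none, chromosome 7 copy 1 had 29.3% without counts. The interaction gave 1038 genes by DESeq2 and 13 to 529 without single libraries. The mean r between the cultivars was 0.731 on linear CPM, 0.608 by rank and 0.625 over the genes expressed in both, against 0.685. Among pathway genes without a call, StCYP73A (Soltu.Atl.06_4G021440) turned to 0.04 with upper quartile factors and ranged from −0.77 to 0.19 without single libraries, StOPCL1 (Soltu.Atl.12_2G005410) turned to 0.06 with upper quartile factors, and without single libraries StLOX1_5 ranged from −0.31 to 0.56 and StAOC from −0.09 to 0.69. StGAD also lost its call with the replicate block (log2FC −1.14), library totals (−1.0) and upper quartile factors (−0.87), and StCSE with TMM factors of the common genes (0.89); the cause was not tested.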
